A study of Mus musculus with 4 samples.

Results

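Cholesterol is built from acetyl-CoA by way of mevalonate, farnesyl diphosphate, squalene and lanosterol, and fatty acids are built from the same acetyl-CoA by acetyl-CoA carboxylase and fatty acid synthase. The genes of both routes are targets of the SREBP transcription factors, which the protein SCAP carries from the endoplasmic reticulum for cleavage when sterols are low and which the INSIG proteins hold back when sterols are plentiful. Myoblasts, the progeny of satellite cells, need both products for their membranes. The 31 genes described here were chosen by name from these routes. All 31 names were found, each on 1 row, among the 54446 rows of the deposited table, and all 31 passed the filter on low values (at least 1 FPKM on average over the samples, FPKM being the fragments counted on a gene, divided by its transcript length and by the sequenced fragments of the library). They comprise 7 genes from acetyl-CoA to farnesyl diphosphate, 11 from squalene to cholesterol, 6 regulators or carriers of sterols and 7 genes of fatty acid synthesis.

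The samples were polyadenylated RNA of satellite cells (resident muscle stem cells) taken from the hindlimb of C57BL/6 mice and cultured in F10 with 10% HS. In 2 samples the cells had received siRNA that targets the long non-coding RNA LncMyoD, which is transcribed near Myod1, and in 2 they had received control siRNA, by title, description and treatment tag; all were harvested after 48 h. The treatment protocol text of the control samples names the LncMyoD siRNA as well, 0 rows carry the name LncMyoD, so the knockdown itself was not analysed here. The labels do not say whether replicates were separate cultures or animals, and the p-values rest on sample-to-sample spread that may be technical alone.

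The libraries were of similar depth, with 36.6 to 41.1 reads of 150 nt behind 1 FPKM on a transcript of 1 kb. Myoblast genes marked all 4 libraries, with Myod1 at 583 to 698 FPKM, Myog at 2793 to 4196 and Des at 221 to 287. Other genes of the same list of 7 satellite cell and myoblast markers were lower. Cdh15 was at 111 to 148 FPKM, Itga7 at 51.3 to 82.5 and Myf5 at 6.11 to 8.20. Pax7 did not pass the filter, at 0.625 to 1.40 FPKM. The adipocyte markers Adipoq, Plin1, Lep and Cidec were at 0 in every library, and the 8 adipocyte markers summed to 3.73 to 4.55 FPKM. Of 5 endothelial markers Kdr was at 0 in every library, and the sum was 5.77 to 8.18 FPKM, most of it from Eng. Of 6 macrophage markers Ptprc and Adgre1 were at 0, and the sum was 2.27 to 3.40 FPKM, with Cd14 present. Acta2, which smooth muscle shares with cultured myoblasts, stood at 2576 to 3165 FPKM. In bulk RNA, fewer cells of a type and less RNA per cell cannot be told apart.

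No gene of the cholesterol and fatty acid routes passed the test of a difference between knockdown and control cells. The summed level of the 31 genes was 1322 and 1334 FPKM in the knockdown libraries and 1344 and 1289 in the controls. By limma on log2(FPKM + 1), with Benjamini-Hochberg adjustment over all 10900 genes tested and a threshold of 0.05, 0 of 31 members were called higher, where 0.00917% of all genes tested were, and 0 were called lower, where 0.0459% were. At an unadjusted p under 0.05 limma gave 3 members higher (Acat2, Hsd17b7 and Acly), against 4.39% of all genes, and 1 lower (Insig2), against 2.7%. These 4 members became 7 without knockdown replicate 1, 6 without knockdown replicate 2, 2 without control replicate 1, 1 without control replicate 2 and 2 without the trend of the fit, while the count over all genes went from 772 to 1150, 1158, 405, 526 and 829. The genes behind those shares, 478 higher and 294 lower, became 382 and 360 with quantile normalization and 403 and 354 with median-ratio size factors. The median log2 fold change of the members was 0.01 (-0.016 under either of those scalings), and that of all genes tested was 0.03. Of the members 16 were positive and 15 negative, against 5972 and 4928 of all 10900 genes tested. For 7 members (22.6%) the knockdown values were both higher than either control, against 22.1% of all genes, and for 7 (22.6%) both were lower, against 16.3%. With 2 samples a group, an exact permutation test of a single gene cannot go below a p of 0.333.

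These data bound most differences without showing that levels were alike. On the scale of log2(FPKM + 1), the 95% interval lay within a 2-fold difference either way for 30 of the 31 members. It lay within 1.5-fold for 18 of them (58.1%), against 40.3% of all genes tested. Those shares were not matched for level. The standard error was 0.10 for Cyp51, above 97.0% of the genes tested in level, and 0.22 for Acaca, above 5.61%. Scap was the member whose interval reached past 2-fold on that scale. Adding 1 shrinks the fold changes of low genes. For low members such as Acaca, Acss2 and Srebf1, the bounds therefore need not hold for FPKM itself.

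**Figure D1:**
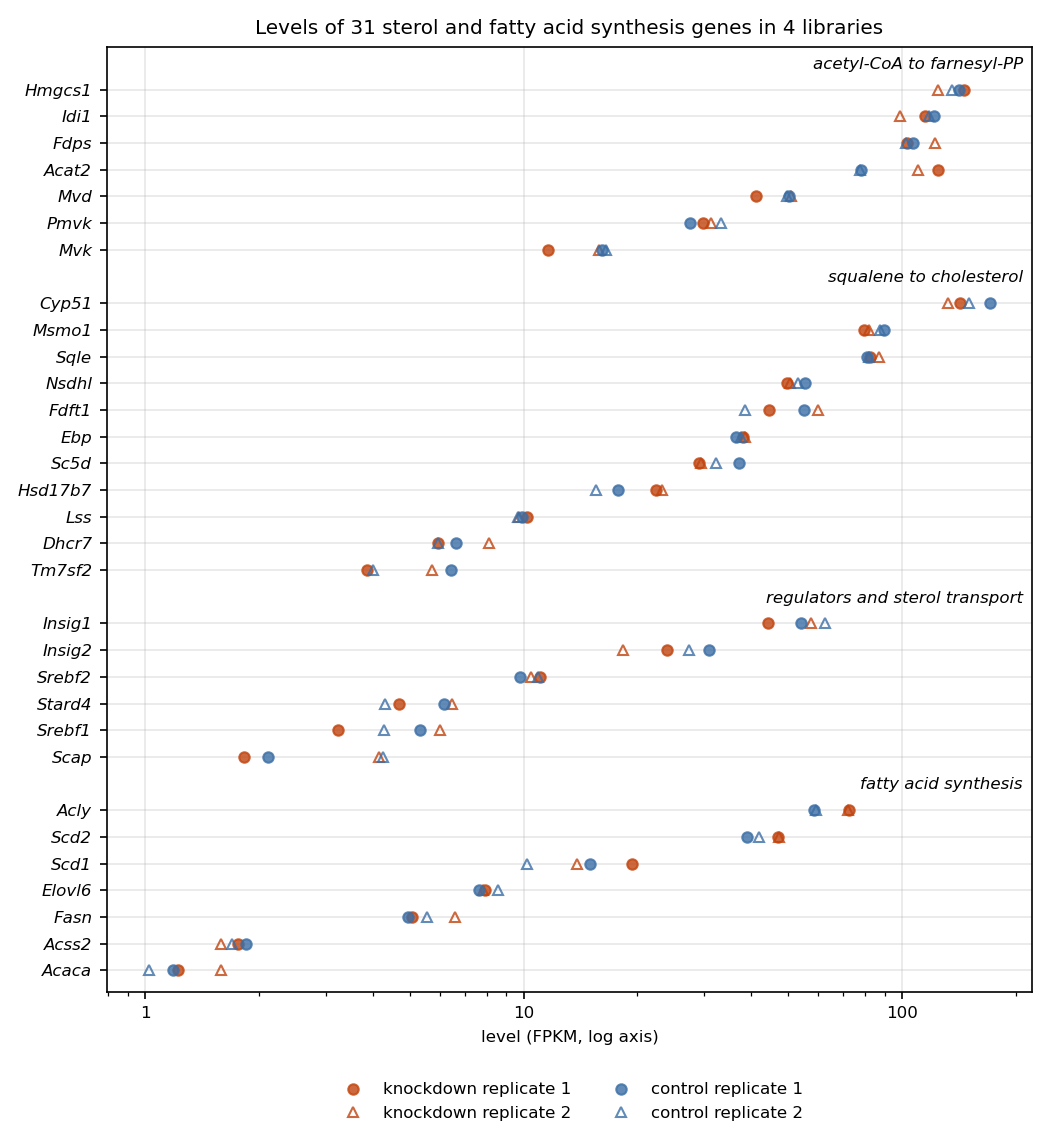
Level of each of the 31 genes (FPKM, log axis) in the 4 libraries, ordered by mean level within each role; filled circles are replicate 1 and open triangles replicate 2, in red for knockdown and blue for control. Cyp51, at 132 to 171 FPKM, is the highest and Acaca, at 1.02 to 1.59 FPKM, the lowest, and for most genes the red and blue points intermingle.

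FPKM is scaled to transcript length, so levels can be ordered between genes. The most abundant members were sterol enzymes. Cyp51, the lanosterol demethylase, had a mean over the 4 samples of 149 FPKM, above 97.0% of the genes tested. It was followed by Hmgcs1, the HMG-CoA synthase, at 137 FPKM, Idi1, the isopentenyl diphosphate isomerase, at 113, Fdps, the farnesyl diphosphate synthase, at 109, and Acat2, the cytosolic acetyl-CoA acetyltransferase, at 97.5. Hmgcs1 and Cyp51 overlapped in range, and so did Idi1 and Fdps, so these neighbours in the order do not differ beyond their spread. In the controls alone, Acat2 ranked 7 among the members by mean level, after Msmo1 and Sqle. Other sterol enzymes stood in the middle of the genes tested, such as Tm7sf2 at 5.01 FPKM, above 41.6% of them, and Dhcr7 at 6.66 FPKM, above 48.7%.

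Neighbouring steps of the same route differed widely in level. Mvk, the mevalonate kinase, stood at 15.0 FPKM, and the level of Hmgcs1 was 7.83 to 12.6 times that of Mvk over the 4 libraries. Lss, the lanosterol synthase, stood at 9.88 FPKM, and Cyp51, which acts on the product of Lss, was 13.6 to 17.2 times as high. The fatty acid route had a similar spread: Acly, the ATP citrate lyase that makes cytosolic acetyl-CoA, stood at 65.6 FPKM, against 5.54 for Fasn, the fatty acid synthase, 1.72 for Acss2, the acetyl-CoA synthetase, and 1.25 for Acaca, the acetyl-CoA carboxylase. The annotated transcripts of Acaca range from 431 to 9513 bases and those of Lss from 314 to 6992, so that the length used for scaling bears on such ratios.

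Promoter windows of RefSeq (GRCm38.p6, from 250 bases before to 50 after each annotated start) were matched by symbol for 25 of the 31 members, which have 33 windows. Fdps, Fdft1, Sqle, Stard4, Scd1 and Scd2 had no matched window and were not searched. The windows of the other members were read as follows. They were searched on both strands for the letters of a core of the sterol regulatory element that SREBP binds (TCACNCCAC, N being any base), the CCAAT box of the factor NF-Y (CCAAT), the GC box of Sp1 (GGGCGG) and an E-box (CACGTG, which reads the same on both strands). CCAAT and GC boxes may share bases where they abut. The sterol core was found in 1 of 33 member windows (3.03%) and in 1.24% of all 32851 windows. CCAAT letters were in 22 of 33 member windows (66.7%), against 37.4% of all windows. GC box letters were in 25 (75.8%), against 35.7%, and the E-box was in 6 (18.2%), against 7.15%. All windows are those of 27025 genes, expressed in these cells or not, whereas every member passed the filter. The shares among the genes tested were not counted. A match is a description of letters, not a bound site.

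The bases before the start are shown for Hmgcs1, the 1 member with the sterol core among the 25 searched. They are also shown for Acat2, Hsd17b7 and Acly, the 3 members higher at an unadjusted p under 0.05 by limma. Capitals mark the sterol core and CCAAT letters, the latter on either strand.
Hmgcs1 (chr13:119690101-119690350, plus strand): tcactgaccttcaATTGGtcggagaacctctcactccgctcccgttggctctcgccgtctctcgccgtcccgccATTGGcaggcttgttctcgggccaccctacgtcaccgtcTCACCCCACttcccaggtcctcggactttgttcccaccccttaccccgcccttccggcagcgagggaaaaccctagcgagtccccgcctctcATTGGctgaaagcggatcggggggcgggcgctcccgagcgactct
Acat2 (chr17:12960726-12960975, minus strand): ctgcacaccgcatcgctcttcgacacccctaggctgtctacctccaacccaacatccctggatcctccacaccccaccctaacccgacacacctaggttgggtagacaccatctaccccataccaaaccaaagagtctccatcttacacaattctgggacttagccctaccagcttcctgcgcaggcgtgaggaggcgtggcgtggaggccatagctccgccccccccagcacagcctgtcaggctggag
Hsd17b7 (chr1:169969206-169969455, minus strand): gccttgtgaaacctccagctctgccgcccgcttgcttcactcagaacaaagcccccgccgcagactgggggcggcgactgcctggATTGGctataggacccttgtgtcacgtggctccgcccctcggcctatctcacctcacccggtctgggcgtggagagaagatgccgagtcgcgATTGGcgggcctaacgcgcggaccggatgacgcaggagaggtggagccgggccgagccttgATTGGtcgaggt
Acly (chr11:100528001-100528250, minus strand): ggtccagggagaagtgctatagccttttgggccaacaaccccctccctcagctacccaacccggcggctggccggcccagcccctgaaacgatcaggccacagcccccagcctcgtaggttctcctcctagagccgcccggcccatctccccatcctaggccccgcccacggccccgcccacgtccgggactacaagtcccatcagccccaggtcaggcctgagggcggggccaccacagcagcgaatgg
The core of Hmgcs1, TCACCCCAC, begins 137 bases before the start, in a window with 4 CCAAT matches, of which 3 lie in the bases shown. Hsd17b7 has 3 CCAAT matches, all in the bases shown. Acat2 has none and Acly has 1, which lies after the start, so neither has capitals.

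In the route from acetyl-CoA to farnesyl diphosphate, Acat2 had the largest estimate of any member. Acat2 (ENSMUSG00000023832; chromosome 17, 12942890 to 12960747, minus strand, GRCm38) joins 2 molecules of acetyl-CoA ahead of HMG-CoA synthase. It had 124 and 110.5 FPKM in the knockdown libraries (replicates 1 and 2, in that order here and below) and 78.0 and 77.3 in the controls. The groups did not overlap, with 117 ± 9.75 FPKM against 77.7 ± 0.466 (SD, n = 2), a ratio of 1.51. By limma the log2 fold change was 0.59 ± 0.10 (SE), with a 95% interval of 0.34 to 0.83 and an adjusted p of 0.378, so it did not pass.

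Acat2 shares part of its sequence with Acat3, and reads may have been split between the 2 genes. Of all stretches of 75 bases in the Acat2 transcripts, 33.9% also occur in those of Acat3, and 9.19% occur on the opposite strand of Tcp1, a chaperonin subunit. Acat3 had 6.26 and 4.01 FPKM in the knockdown libraries against 6.86 and 6.33 in the controls, and Tcp1 had 151 and 150.4 against 171 and 160. Both of these genes were lower in the knockdown libraries, though Acat3 in knockdown replicate 1 was close to control replicate 2. How reads were split was not tested. With Acat3 added to it, Acat2 had 131 and 114 FPKM in the knockdown libraries against 84.9 and 83.7 in the controls, and the log2 fold change was 0.53, with an interval of 0.28 to 0.78 and a limma adjusted p of 0.523.

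Acat1, the mitochondrial enzyme of the same reaction and not a member, had 79.7 and 76.1 FPKM in the knockdown libraries against 84.9 and 86.8 in the controls. The level of Acat2 was therefore 1.56 and 1.45 times that of Acat1 in the knockdown libraries and 0.919 and 0.891 times in the controls. By limma Acat1 had -0.14 on the log2 scale (adjusted p 0.784), and the difference between the genes was not tested.

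The step after Acat2 did not share its difference. Hmgcs1 (chromosome 13, 119690379 to 119708260, plus strand) had 146 and 124 FPKM in the knockdown libraries and 141 and 135 in the controls. The knockdown libraries lay on either side of the controls, and the log2 fold change of -0.04 had an interval of -0.30 to 0.23. An antisense transcript, Gm48342, covers 12.1% of the exonic bases of Hmgcs1, at no more than 0.481 FPKM in any library, and the values may not have been counted by strand.

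Mvk, the mevalonate kinase, had 11.6 and 15.9 FPKM in the knockdown libraries against 16.1 and 16.6 in the controls. The groups did not overlap, but knockdown replicate 1 stood apart, and the log2 fold change of -0.25 had an interval of -0.68 to 0.19 (limma adjusted p 0.802); it was -0.04 without that library and -0.46 without knockdown replicate 2. Idi1 had 115 and 98.7 FPKM against 122 and 118, again without overlap, with a log2 fold change of -0.16 and an interval of -0.43 to 0.10. Mvd, the mevalonate diphosphate decarboxylase, had 41.0 and 51.0 FPKM against 50.3 and 49.7, and its groups overlapped. Pmvk, the phosphomevalonate kinase, and Fdps had log2 fold changes of 0.01 (-0.016 with median-ratio size factors) and 0.10, with overlapping groups. Idi1 shares 16.7% of its 75-base stretches with Gm13502, at 32.2 to 39.4 FPKM, and Fdps shares 7.47% with Gm3571, at 45.8 to 60.2 FPKM, so their levels are uncertain where reads could be split. Fdps also shares 21.9% with Gm43738, at 0 FPKM in every library, and 2.73% with Gm5873, at 8.04 to 10.7 FPKM. With the rows of Gm13502 and Gm3571 added, the log2 fold change was -0.17 for Idi1 and 0.10 for Fdps. The 7 genes of this route had a median of -0.04, with 3 positive and 4 negative, and 0 passed.

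From squalene to cholesterol, Hsd17b7 had the largest difference. Hsd17b7 (ENSMUSG00000026675; chromosome 1, 169949535 to 169969241, minus strand) encodes a sterol ketoreductase that acts in the removal of methyl groups from lanosterol. It had 22.4 and 23.2 FPKM in the knockdown libraries and 17.8 and 15.6 in the controls. Both knockdown libraries were higher, at 22.8 ± 0.575 FPKM against 16.7 ± 1.58 (SD, n = 2), a ratio of 1.37. The limma log2 fold change was 0.43 ± 0.13 (SE), with an interval of 0.11 to 0.76 and an adjusted p of 0.627.

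Some other enzymes from squalene to cholesterol had lower values in the knockdown libraries, with intervals that held 0. Msmo1, the sterol methyl oxidase, had 79.2 and 81.6 FPKM in the knockdown libraries against 89.6 and 87.3 in the controls, and Nsdhl, the dehydrogenase of the same demethylation, had 49.7 and 50.6 against 55.3 and 53.2. Both genes were without overlap between groups, with log2 fold changes of -0.14 and -0.11 and intervals that held 0. Cyp51 had 142 and 132 FPKM in the knockdown libraries against 171 and 150.0 in the controls. Its log2 fold change was -0.22 ± 0.10 (SE), with an interval of -0.47 to 0.03 and a limma adjusted p of 0.705. Sc5d, the lathosterol oxidase, had 29.0 and 29.4 FPKM against 37.0 and 32.2, and its difference was -0.23 on the log2 scale (limma adjusted p 0.724). For these 4 of the 11 genes from squalene to cholesterol (36.4%) both knockdown libraries lay below both controls, against 16.3% of all genes tested, and for 3 (27.3%) both lay above, against 22.1%, while none passed the test.

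The remaining sterol enzymes had small estimates or wide intervals. Sqle, the squalene epoxidase, had 82.4 and 87.0 FPKM in knockdown against 80.9 and 81.7, and Ebp, the sterol isomerase, had 37.9 and 38.4 against 36.5 and 37.6. Their groups did not overlap, but the log2 fold changes were 0.06 and 0.04. Lss had a log2 fold change of 0.03 with overlapping groups, and the sign turned with quantile normalization (-0.020) and with median-ratio size factors (-0.00059). Fdft1, the squalene synthase, had 44.6 and 60.0 FPKM against 55.0 and 38.6, and its replicates differed 1.35-fold in the knockdown and 1.43-fold in the control. The log2 fold change was 0.16 with an interval of -0.35 to 0.68. Of the exonic bases of Fdft1, 18.3% are also exonic in Ctsb on the opposite strand, which stood at 38.3 to 41.5 FPKM. Dhcr7, which makes cholesterol from its dehydro precursor, had 5.95 and 8.09 FPKM against 6.65 and 5.94, with overlapping groups and a log2 fold change of 0.13 (interval -0.37 to 0.62). Tm7sf2, a sterol reductase, had 3.86 and 5.74 against 6.42 and 4.01, with a log2 fold change of -0.09 (interval -0.76 to 0.58), and 8.83% of its 75-base stretches are shared with Vps51. The 11 genes, of which Lss is the middle one, had a median log2 fold change of 0.03, with 6 positive and 5 negative.

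**Figure D2:**
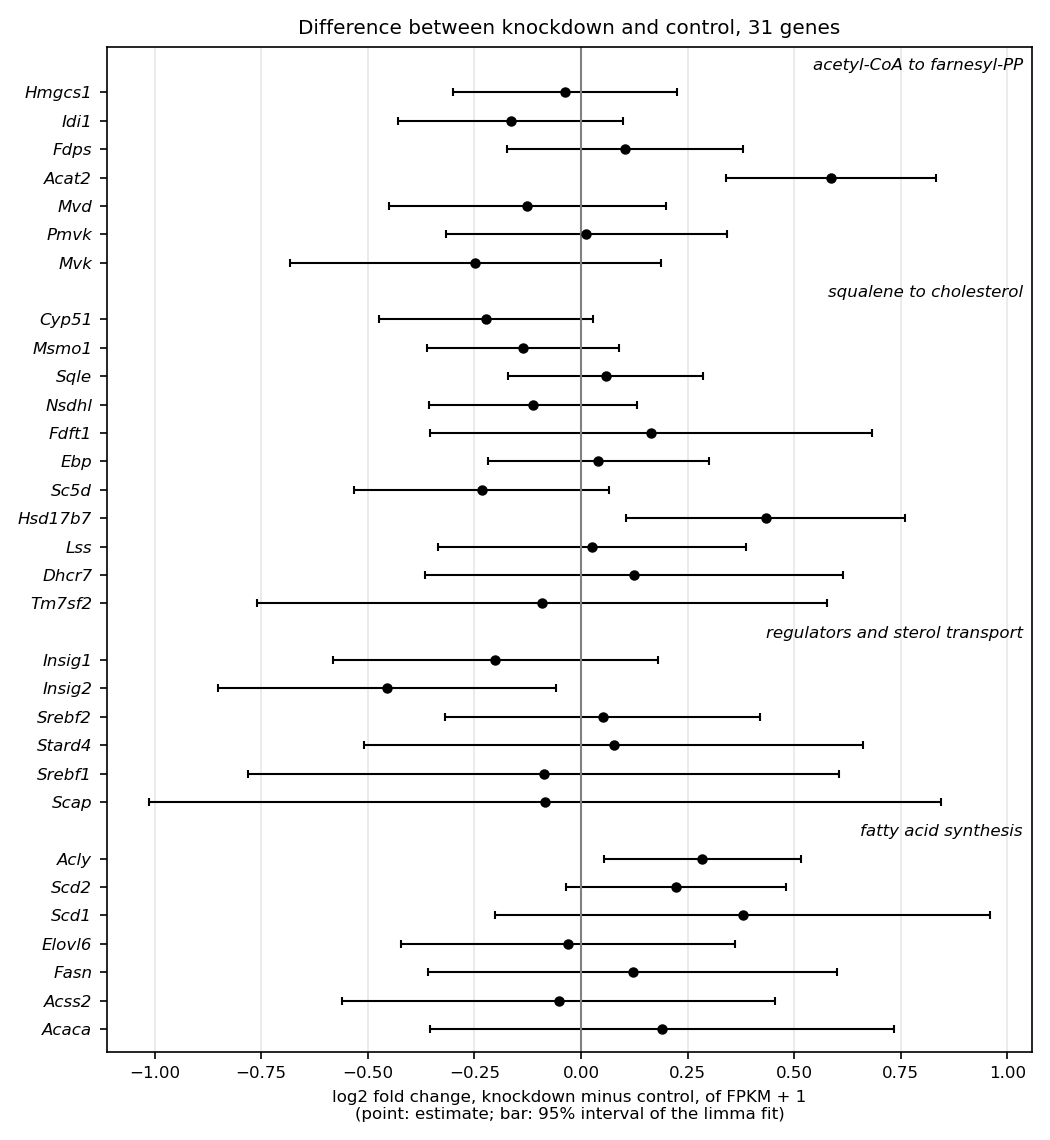
Log2 fold change (knockdown minus control, of FPKM + 1) of each of the 31 genes with the 95% interval of the limma fit, in the same order as the plot of levels. The intervals of Acat2, Hsd17b7, Insig2 and Acly exclude 0 before adjustment, and 0 of the 31 pass after adjustment over 10900 genes.

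Among the regulators, Insig2 had the largest difference. Insig2 (ENSMUSG00000003721; chromosome 1, 121304353 to 121332589, minus strand) encodes one of the proteins that hold SCAP in the endoplasmic reticulum. It had 23.9 and 18.3 FPKM in the knockdown libraries and 30.9 and 27.4 in the controls. Both knockdown libraries were lower, at 21.1 ± 3.91 FPKM against 29.1 ± 2.47 (SD, n = 2), a ratio of 0.725. By limma the log2 fold change was -0.46 ± 0.16 (SE), with an interval of -0.85 to -0.06 and an adjusted p of 0.664. The estimate was -0.27 without knockdown replicate 2 and -0.64 without knockdown replicate 1. Insig2 has 14 annotated transcripts of 204 to 2697 bases and 3 RefSeq promoter windows, of which 1 holds 3 CCAAT matches and the other two hold none, and the values per gene do not tell its transcripts apart.

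Insig1, its paralog and a target of SREBP, had 44.2 and 57.5 FPKM in the knockdown libraries against 54.0 and 62.5 in the controls. The groups overlapped, and the log2 fold change was -0.20 with an interval of -0.58 to 0.18. It was -0.015 without knockdown replicate 1 and -0.39 without knockdown replicate 2. Insig1 was 1.75 to 3.13 times as high as Insig2 in every library, with ratios of 1.85 and 3.13 in the knockdown libraries and 1.75 and 2.28 in the controls, which overlap.

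The SREBP genes themselves were of low to moderate level. Srebf2, whose product acts mainly on cholesterol genes, had 11.0 and 10.4 FPKM in the knockdown libraries against 9.78 and 10.9 in the controls, with a log2 difference of 0.05 with an interval of -0.32 to 0.42. Srebf1, whose product acts mainly on fatty acid genes, had 3.23 and 6.01 FPKM against 5.34 and 4.27. The knockdown replicates of Srebf1 differed 1.86-fold, more than the groups did. Scap had 1.83 and 4.15 FPKM in the knockdown libraries and 2.11 and 4.25 in the controls, so that the replicates differed 2.27-fold in the knockdown and 2.01-fold in the control. Its interval of -1.01 to 0.85 was the widest of the 31. Stard4, a carrier of cholesterol between membranes, had 4.68 and 6.45 FPKM against 6.18 and 4.31. Over the 6 regulators the median was -0.09 on the log2 scale, with 2 positive and 4 negative, and it was -0.33 for knockdown replicate 1 and 0.14 for knockdown replicate 2 against the control mean.

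In fatty acid synthesis, Acly had the lowest p. Acly (ENSMUSG00000020917) lies on chromosome 11, from 100476353 to 100528000 on the minus strand. It had 72.4 and 71.9 FPKM in the knockdown libraries and 58.7 and 59.4 in the controls. Replicates were close together, at 72.1 ± 0.406 FPKM against 59.0 ± 0.549 (SD, n = 2), a ratio of 1.22. The limma log2 fold change was 0.28 ± 0.09 (SE), with an interval of 0.05 to 0.52 and an adjusted p of 0.645. Slc25a1, the citrate carrier of mitochondria that supplies the substrate of Acly and is not a member, had 14.2 and 13.4 FPKM against 8.84 and 10.9. Its log2 fold change was 0.44, with an interval of 0.05 to 0.84 and an adjusted p of 0.668.

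The stearoyl-CoA desaturases, which make monounsaturated fatty acids, lay the same way without passing. Scd2 had 47.1 and 47.4 FPKM in the knockdown libraries against 39.0 and 41.8 in the controls, without overlap, and a log2 difference of 0.22 with an interval of -0.04 to 0.48. Scd1 had 19.4 and 13.9 FPKM against 15.0 and 10.2, and its groups overlapped. Its log2 fold change was 0.38 with an interval of -0.20 to 0.96, and it ran from 0.12 without control replicate 2 to 0.64 without control replicate 1. Scd2 was the more abundant isoform in every library, at 2.43 to 4.10 times the level of Scd1.

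The carboxylase and synthase steps were low throughout. Acaca had 1.22 and 1.59 FPKM in the knockdown libraries against 1.18 and 1.02 in the controls, without overlap but near the filter, with a log2 fold change of 0.19 and an interval of -0.36 to 0.73. Gm5182, which shares 26.2% of the 75-base stretches of Acaca, was at 0.224 to 0.492 FPKM. Fasn had 5.08 and 6.58 FPKM against 4.95 and 5.55, Elovl6, an elongase of palmitate, had 7.93 and 7.83 against 7.61 and 8.54, and Acss2 had 1.76 and 1.59 against 1.85 and 1.70, all with overlapping groups. The 7 genes had a median log2 fold change of 0.19, with 5 positive and 2 negative, against 0.03 over all genes tested. That median was 0.08 for knockdown replicate 1 and 0.23 for knockdown replicate 2 against the control mean, and 0 of the 7 passed.

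**Figure D3:**
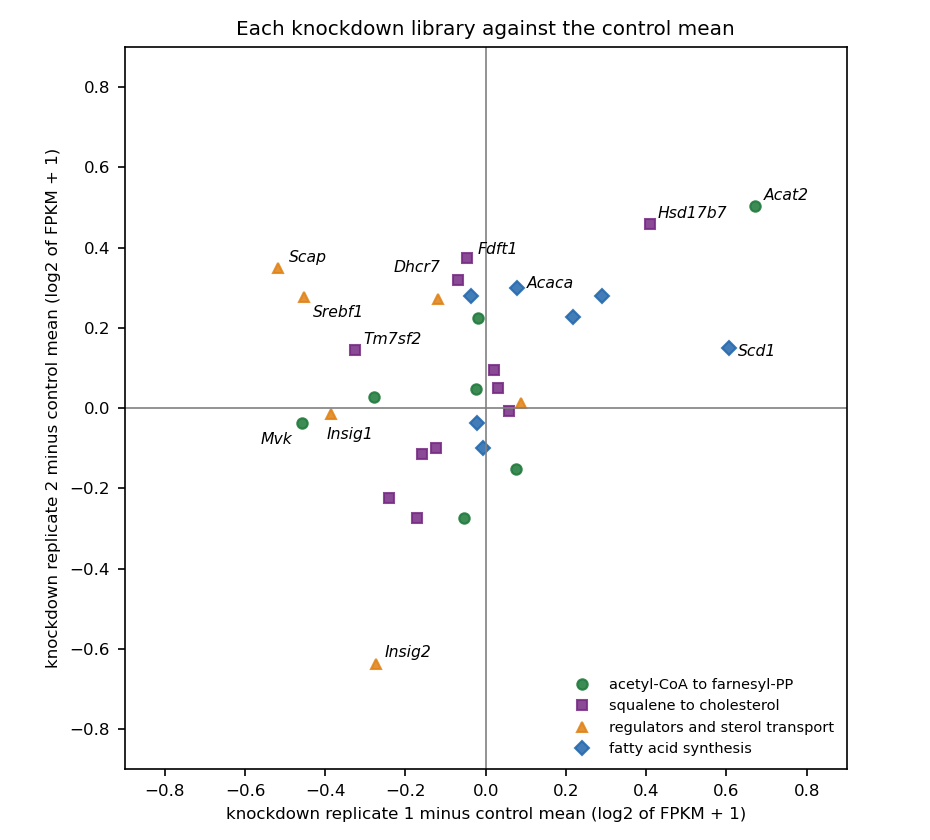
Departure of knockdown replicate 1 (horizontal axis) and knockdown replicate 2 (vertical axis) from the control mean, in log2 of FPKM + 1, for the 31 genes by role; both axes use the same control mean. Genes past 0.3 in either library are named, and only Acat2 and Hsd17b7 are past 0.3 in both in the same direction.

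The knockdown libraries often departed from the controls in different genes. Relative to the control mean, 12 members departed by more than 0.3 on the log2 scale in at least 1 knockdown library, and 2 of them, Acat2 and Hsd17b7, did so in both in the same direction. In 12 of the 31 members the knockdown libraries had opposite signs. These counts were not made over all genes tested, so they do not set the members apart from other genes. The median gap between the knockdown replicates was 0.22 over the members and 0.22 over all genes tested, and that between the control replicates was 0.14 and 0.16.

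Of the wider network of sterol and fatty acid genes, 76 of 85 listed genes passed the filter, and 0 were called by limma in either direction, with 2 of the 76 higher and 0 lower at an unadjusted p under 0.05, against 4.39% and 2.7% of all genes tested. The isoprenoid branch, which spends farnesyl diphosphate on other products, had 7 of 10 positive, where 5972 of all 10900 genes tested were. In it Fntb, the farnesyltransferase beta subunit, had 9.64 and 10.6 FPKM in the knockdown libraries against 6.88 and 7.36 in the controls (log2 fold change 0.45, limma adjusted p 0.653). Dhdds, which makes dolichol, had -0.39, but -0.094 without control replicate 1 and -0.68 without control replicate 2. Of the SREBP processing genes 7 of 10 were positive, with Erlin2, of the degradation machinery of the endoplasmic reticulum, at 0.25. The list of sterol uptake, transport and esterification genes, in which Acat1 was also placed, had a median of 0.11 over 13 tested. In it Lipa, the lysosomal lipase, had -0.23.

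Genes of the sterol-sensing LXR receptors and their partners were mostly low: 5 of 8 passed the filter, and Rxra and Rxrb had log2 fold changes of -0.34 and -0.32. Other genes of fatty acid synthesis had a median of 0.04 over 17 tested, and Elovl5, an elongase of polyunsaturated fatty acids, had -0.31. Acyl-CoA ligases and glycerolipid genes had a median of -0.05 over 10, with Dgat1, which makes triglyceride, at -0.33 and Acsl1 at -0.50 (-0.79 without control replicate 1 and -0.21 without control replicate 2). Fatty acid oxidation genes, of the route that breaks fatty acids down, had 11 of 14 tested. Of these 10 were negative, where 4928 of all 10900 genes tested were, and the median was -0.08. By limma 0 of the 11 had an unadjusted p under 0.05. In that list Acadm, a medium-chain dehydrogenase, had 27.8 and 27.5 FPKM in the knockdown libraries against 33.3 and 33.2 in the controls (log2 fold change -0.26, limma adjusted p 0.698), and Hadha had -0.29.

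Some markers of other cell types also differed in level between the groups, without passing the test. Pparg, the adipogenic receptor, had 2.07 and 1.61 FPKM in the knockdown libraries against 0.298 and 0.504 in the controls, which is 1.02 on the log2 scale (limma adjusted p 0.523). Lpl, the other adipocyte marker that passed the filter, lay the other way, with 2.09 and 2.29 FPKM against 3.29 and 3.69, which is -0.49 (limma adjusted p 0.692). Cd34, a marker of fibro-adipogenic progenitors and of other cells, had 4.52 and 4.62 FPKM against 1.36 and 1.17 (limma adjusted p 0.265). Islr and Col1a1 of the same list lay the other way. Islr had 42.1 and 30.6 FPKM against 51.2 and 58.5, which is -0.59 (limma adjusted p 0.607). Col1a1 had -0.51 (limma adjusted p 0.698). The 6 fibro-adipogenic markers as a sum were 50.0 and 37.8 FPKM in the knockdown libraries and 56.7 and 64.5 in the controls. Most of the sum was Islr, and Pdgfra and Dcn were at no more than 0.160 in any library. The smooth muscle and pericyte markers that passed the filter were also lower in both knockdown libraries. Mcam had -0.86, Cspg4 -0.28 and Acta2 -0.24 on the log2 scale (limma adjusted p 0.607, 0.807 and 0.607). Myog, the factor of differentiating myoblasts, had 3406 and 2793 FPKM against 4196 and 3931 (adjusted p 0.607). The part of these differences in the levels of the lipid genes was not tested.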

How the data were processed

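Per the submitters' processing notes, bcl2fastq 2.19, Trimmomatic 0.36, HISAT2 2.1.0, SAMtools 1.3 and StringTie 1.3.3 were used with the mouse build mm10; what each did is not stated, and for the annotation and strandedness the entry is: not given in the sources used here. The authors deposited 1 FPKM value per gene and sample, a unit read from the values. The columns sum to 317223 to 322496, and FPKM times length in genes with 1 exon and 1 transcript fell on whole multiples of a step for 86.1% to 87.0% of values (tolerance 0.1 of a step, where chance gives 20.0%), which gave the depth. Reads are spread over bases, so no count model was used. Precision is limited by 2 samples a group: 95% intervals had a median half-width of 0.48 in log2 units.

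The 10900 genes averaging 1 FPKM or more were fitted with limma 3.58.1 in R 4.3.3 on log2(FPKM + 1), with a mean-variance trend, two-sided tests and Benjamini-Hochberg adjustment over all of them. A fold change is knockdown minus control on that scale, on which changes of low genes appear smaller. The procedure was tested on simulated data of the same size, where most changes of 2-fold or less went uncalled. Summaries and plots used pandas 2.3.3, numpy 2.4.6 and matplotlib 3.10.9 under Python 3.11.15. Coordinates and exons are from GENCODE M21 (GRCm38, the assembly of mm10), and promoter windows are from RefSeq. Stretches of 75 bases shared with other genes were counted over the GENCODE transcripts.

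The 31 members, the 7 lists of related genes and the markers were chosen with earlier results of these data known. All members are given; fuller values went to the 4 members with the lowest p and the most abundant one of each role, and to the 2 related genes per list with the lowest p, of which 1 is not reported here. Beyond this rule, Sqle, Ebp and other members are given by value. The markers given with fold changes or adjusted p-values, such as Pparg, Lpl, Cd34, Islr, Mcam and Myog, were named after their values were seen. Same-numbered samples did not deviate together (correlation of deviations -0.021 over all genes tested and 0.18 over the 31 members), and the labels do not tie equal numbers together, so no block was used. Alternatives were other scalings, a pseudocount of 0.1, other filters, no trend, a replicate block, leaving out each library and, chosen after seeing the data, adding the rows of Acat3, Gm3571 and Gm13502 to those of Acat2, Fdps and Idi1.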

Additional observations from a re-analysis of the deposited data

How the results depend on the processing

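Limma called 0 members in each of the 12 alternatives. Acat2 kept its direction in all of them, with log2 fold changes of 0.50 to 0.67 and adjusted p-values of 0.184 to 0.969, Insig2 ranged from -0.64 to -0.27, Hsd17b7 from 0.34 to 0.52 and Acly from 0.26 to 0.29. Of the 31 members, 17 kept their sign in every alternative that tested them and 14 did not. With median-ratio size factors Pmvk had -0.016 and Lss -0.00059, and with quantile normalization Lss had -0.020. Leaving out each library in turn, with the remaining single sample taken to vary as the other group does, the log2 fold changes that crossed 0 ran from -0.15 to 0.077 for Hmgcs1, -0.12 to 0.14 for Pmvk, -0.28 to 0.027 for Mvd, -0.018 to 0.23 for Fdps, -0.086 to 0.41 for Fdft1, -0.0067 to 0.059 for Lss, -0.37 to 0.19 for Tm7sf2, and from -0.069 to 0.32 for Dhcr7, -0.45 to 0.28 for Srebf1, -0.022 to 0.12 for Srebf2, -0.52 to 0.35 for Scap, -0.14 to 0.29 for Stard4, -0.037 to 0.28 for Fasn and -0.10 to 0.044 for Elovl6. Without crossing 0, the values ran from -0.28 to -0.054 for Idi1, 0.019 to 0.096 for Sqle, 0.019 to 0.061 for Ebp, -0.32 to -0.13 for Cyp51, -0.33 to -0.14 for Sc5d, -0.099 to -0.0060 for Acss2, 0.078 to 0.30 for Acaca, 0.046 to 0.46 for Erlin2, -0.53 to -0.14 for Rxra, -0.45 to -0.19 for Rxrb and -0.45 to -0.17 for Elovl5. The median over the 31 members ran from -0.037 to 0.049 without each library. Role medians ran from -0.12 to 0.027 for the genes up to farnesyl diphosphate, -0.086 to 0.049 for squalene to cholesterol, -0.33 to 0.14 for the regulators and 0.078 to 0.23 for fatty acid synthesis. Over all genes, 1 was called higher and 5 lower; with 1 library left out these counts ran from 2 to 4 and from 2 to 11, without the filter both were 0 (1508 genes had an unadjusted p under 0.05), the pseudocount of 0.1 and the median-ratio factors each gave 2 higher, and limma without the trend gave 3 lower. The replicate block called 1 gene higher and 2 lower and 0 members, and the numbers do not pair the samples. At 5 FPKM the filter left 27 of the 31 members. Depth limits Acaca, Scap and Acss2 most, which rest on 17.2 to 28.7 reads in their lowest library if scaled to their shortest transcript.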
